A study of Trachemys scripta elegans with 3 samples.

Results

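The apolipoprotein and lipoprotein lipid transfer transcripts of red-eared slider (Trachemys scripta elegans) liver were followed across 3 salinities. They were taken as every assembled transcript group (unigene) whose best protein match in the NR database came from a painted, green or softshell turtle, a slider or an alligator and whose description named an apolipoprotein, cholesteryl ester transfer protein, microsomal triglyceride transfer protein, phosphatidylcholine-sterol acyltransferase or phospholipid transfer protein. This rule found 30 unigenes of 205118 and gave 22 gene names. The NR match was from painted turtle for 24 of them, green turtle for 4, softshell turtle for 1 and alligator for 1. Of the 30 unigenes, 29 were above 0 in at least 1 library, 21 had an expression value of at least 1 in all 3 libraries and 10 had at least 100 in all 3.

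The study kept 9 turtles, 2 years old, for 30 days in fresh water (0 psu, the control), at 5 psu or at 15 psu, with 3 turtles per salinity, and sampled them after a day without food. The livers of the 3 turtles of a group were pooled into 1 RNA-seq library, so each salinity has a single RNA-seq value. Neither an error nor a test can be given from it for any gene. A difference between salinities is therefore a difference between 2 pooled libraries, and the variation among turtles cannot be told apart from it. Each salinity was also a single water pool. Expression is given as FPKM, fragments scaled by transcript length and by the mapped reads of the library, as deposited. Differences are log2 ratios of FPKM after adding 0.1, and a difference of at least 2-fold is counted as higher or lower. How many reads lie behind any 1 value is unknown.

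Lipoproteins carry triglyceride and cholesterol in blood, and the liver makes most of them. Apolipoprotein B forms the backbone of the triglyceride-rich particles, which are loaded with lipid by microsomal triglyceride transfer protein. Smaller apolipoproteins of the A, C and E groups move between particles, where they build high-density lipoprotein, act on lipases or bind receptors. In plasma, lecithin-cholesterol acyltransferase esterifies cholesterol, and the cholesteryl ester and phospholipid transfer proteins exchange lipids between particles. These roles are known mainly from mammals and birds.

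The libraries were those of liver by their hepatocyte markers. Of 9 marker genes, 8 were found, and their summed FPKM was 25926 in fresh water, 13851 at 5 psu and 15920 at 15 psu, with every found gene above 0 in each library. Albumin differed most, with 4846, 824 and 1268 (c111797_g1) and 3791, 694 and 978 (c111797_g2) in the same order. Most other marker unigenes were lower by less. HPX (593, 576 and 812) was higher at 15 psu, and TTR c102322_g1 (116, 160 and 98.2) at 5 psu. The median log2 ratio over 25794 unigenes whose FPKM reached 1 in all libraries was 0.08 (5 vs. 0 psu), 0.02 (15 vs. 0 psu) and -0.05 (15 vs. 5 psu). Unigenes whose best match was to rat were above 0 in 487 cases at 5 psu and 474 at 15 psu, against 36 in fresh water. The rule left out 2 apolipoprotein E unigenes matched to rat and rabbit, whose FPKM was at most 2.27.

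The apolipoproteins were among the most abundant transcripts of these livers, and most of them had similar levels at the 3 salinities. Summed over the 30 unigenes, FPKM was 16334 in fresh water, 15664 at 5 psu and 14533 at 15 psu, which was 1.66%, 1.62% and 1.51% of the summed FPKM of the library. The 3 clearest departures were cholesteryl ester transfer protein, which was lower at both salinities, and apolipoprotein A-V and 1 of 2 apolipoprotein A-IV unigenes, which were higher at 15 psu. Among the 18 unigenes whose FPKM reached 10 in all libraries, the median ratio of the highest to the lowest library was 1.25, against 1.24 over 5621 such unigenes of all kinds. In bulk liver RNA, fewer cells that express a gene and less RNA of it per cell cannot be told apart.

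**Figure D1:**
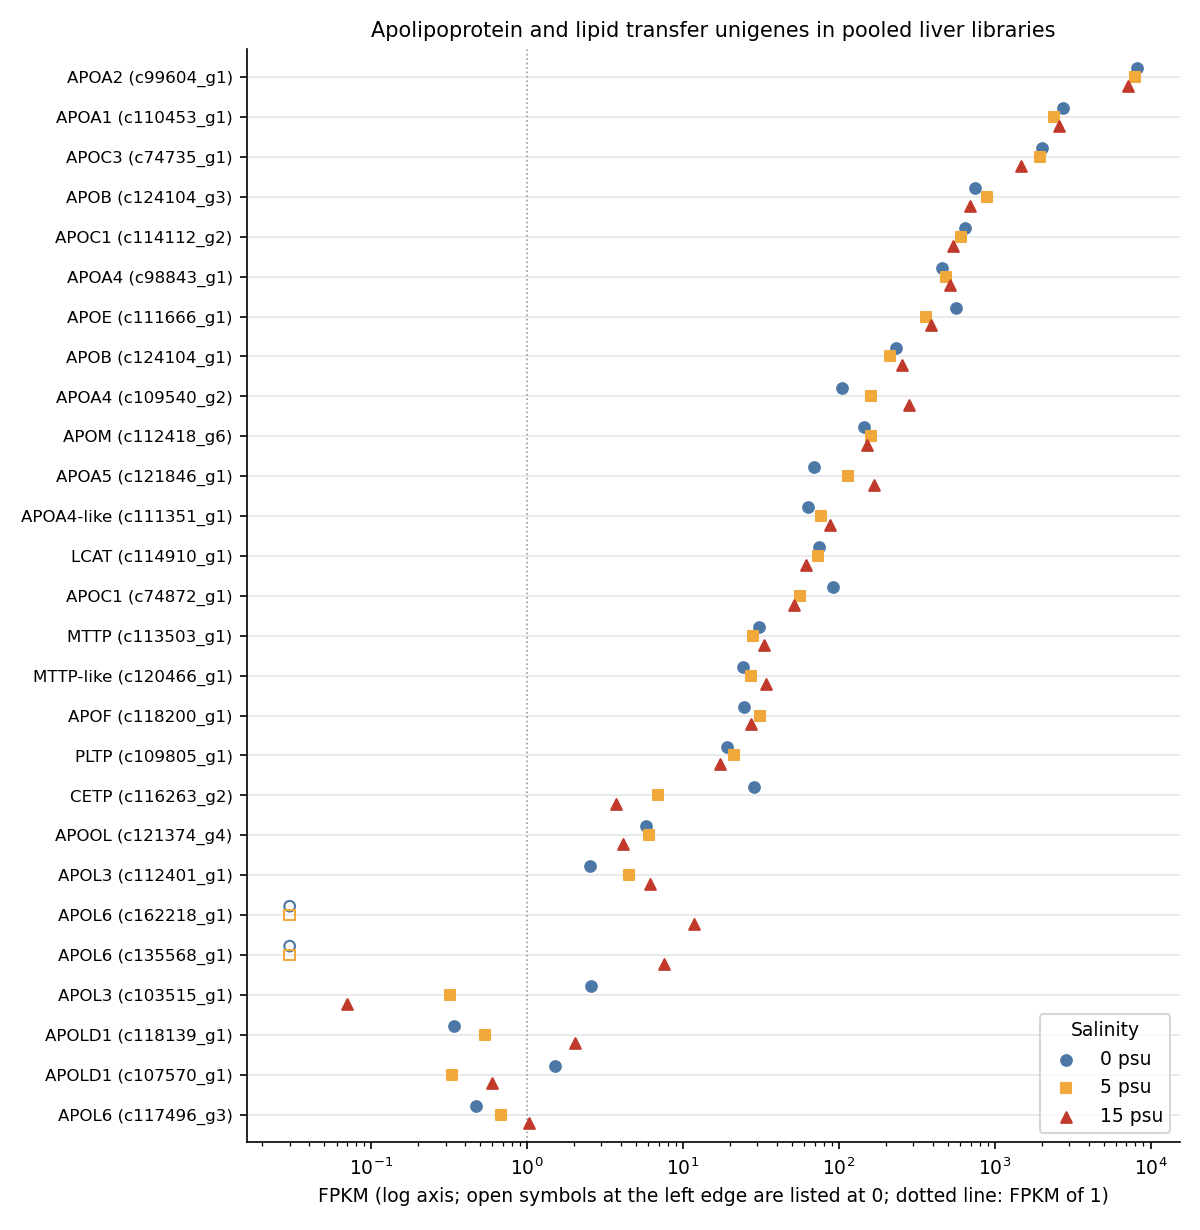
FPKM on a log axis of the 27 apolipoprotein and lipid transfer unigenes whose FPKM reached 1 in any library, ordered by summed FPKM, with circles for 0 psu, squares for 5 psu and triangles for 15 psu (1 pooled library each). APOA2 lies highest at 7144 to 8224, the symbols of most abundant unigenes lie close together, and CETP spreads between 3.74 at 15 psu and 28.5 in fresh water.

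Over the family, differences of 2-fold were less frequent than among all unigenes when low values were allowed, and for 15 vs. 0 psu about as frequent as among those with a turtle or alligator match. Of 23 unigenes whose FPKM reached 1 in either library for 5 against 0 psu, 0 were higher and 3 lower, against 65.5% of all unigenes and 29.9% of those with a turtle or alligator match in either direction. For 15 against 0 psu 6 of 27 were higher and 3 lower, against 64% and 29.6%. For 15 against 5 psu 3 of 25 were higher and 0 lower, against 65.5% and 30.5%. The median log2 ratio of the members was -0.02, 0.07 and 0.10 in these comparisons. It was 0.22, -0.04 and -0.26 over all unigenes and 0.08, 0.01 and -0.06 over turtle or alligator matches. Many unigenes counted there were at or near 0 in 1 library.

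When FPKM had to reach 1 in both libraries, 21 members remained in each comparison. For 5 against 0 psu 0 were higher and 1, CETP, was lower, where 11.5% of all unigenes and 6.5% of turtle or alligator matches were beyond 2-fold. For 15 against 0 psu 3 were higher, namely APOA4 (c109540_g2), APOA5 and APOL3, and CETP was lower, where the shares were 11.9% and 7.4%. An increase of 2-fold alone was found in 4.84% of all unigenes and 3.47% of turtle or alligator matches. For 15 against 5 psu none was beyond 2-fold, where the shares were 12.1% and 7.4%. The members' median log2 ratios were 0.06, -0.10 and -0.09, and those over all unigenes 0.06, -0.01 and -0.03. Over turtle or alligator matches they were 0.06, 0.03 and -0.03. Of the 18 members whose FPKM reached 10 throughout, 5 were in the order 0, 5, 15 psu from low to high and 5 in the reverse order (27.8% each), against 22.2% and 13.5% of 5621 unigenes. Those from low to high were APOA5, both A-IV unigenes, the A-IV-like unigene and the MTTP-like unigene. Those in reverse were APOA2, APOC3, both C-I unigenes and LCAT.

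Apolipoprotein B (APOB), which each low-density particle carries throughout its life, was split by the assembly. The unigene with the carboxy-terminal domain (c124104_g3) had FPKM of 752 in fresh water, 894 at 5 psu and 694 at 15 psu. The unigene with the amino-terminal domain (c124104_g1) had 232, 215 and 254 in the same order. The first was highest at 5 psu and the second lowest there, and the ratio of the first to the second was 3.24 in fresh water, 4.17 at 5 psu and 2.74 at 15 psu. Their sum differed little, with a log2 ratio of 0.17 (5 vs. 0 psu) and -0.06 (15 vs. 0 psu).

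Microsomal triglyceride transfer protein (MTTP), the large subunit of the complex that lipidates apolipoprotein B, was present at a lower level. Its unigene c113503_g1 had FPKM of 30.6 in fresh water, 28.1 at 5 psu and 33.2 at 15 psu. A second unigene described as similar to it (c120466_g1) had 24.2, 27.4 and 34.2, which is a log2 ratio of 0.50 for 15 against 0 psu. Neither reached 2-fold in any comparison. The small subunit of the complex, protein disulfide isomerase (P4HB, c107770_g1), had FPKM of 639 in fresh water, 683 at 5 psu and 751 at 15 psu, so these unigenes for apolipoprotein B secretion were all within 1.5-fold across the libraries.

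Apolipoprotein A-II (APOA2, c99604_g1), a component of high-density lipoprotein, was the most abundant transcript of the family. It had FPKM of 8224 in fresh water, 7969.6 at 5 psu and 7144 at 15 psu, and ranked 9, 5 and 8 among all unigenes. It alone made up about as much FPKM as the other 29 unigenes together, whose sum was 8109 in fresh water, 7694 at 5 psu and 7389 at 15 psu. The KEGG name of this unigene lists protoporphyrinogen oxidase beside APOA2, but its only protein domain was that of apolipoprotein A-II. The log2 ratio was -0.05 (5 vs. 0 psu) and -0.20 (15 vs. 0 psu).

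Apolipoprotein A-I (APOA1, c110453_g1), the main protein of high-density lipoprotein and an activator of cholesterol esterification, followed in abundance. It had FPKM of 2751 in fresh water, 2403 at 5 psu and 2569 at 15 psu. The log2 ratios to 0 psu were -0.19 at 5 psu and -0.10 at 15 psu. The highest library was 1.14 times the lowest for A-I and 1.15 times for A-II, so the transcript of each had a like level at every salinity. Protein was not measured.

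Among secreted members whose FPKM reached 1 in both libraries of a comparison, only apolipoprotein A-V and 1 A-IV unigene had increases of 2-fold or more. Apolipoprotein A-V (APOA5, c121846_g1), which in mammals is made by the liver and promotes the breakdown of plasma triglyceride by lipoprotein lipase, had FPKM of 69.6 in fresh water, 115 at 5 psu and 169 at 15 psu. It was thus higher at each step of salinity, with log2 ratios of 0.72 (5 vs. 0 psu), 1.28 (15 vs. 0 psu) and 0.56 (15 vs. 5 psu). Apolipoprotein A-IV (APOA4), which in mammals is made mostly by the intestine and travels on chylomicrons and high-density lipoprotein, was represented by 2 unigenes that did not behave alike. The less abundant at 0 psu (c109540_g2) had 104 in fresh water, 162 at 5 psu and 284 at 15 psu, with log2 ratios of 0.63 and 1.44 for 5 and 15 against 0 psu and 0.81 for 15 against 5 psu. The other (c98843_g1), matched to green turtle, had 462, 488 and 515, with a log2 ratio of 0.16 for 15 against 0 psu. Summed over both unigenes, APOA4 had 566, 650 and 799. The log2 ratio of this sum was 0.50 for 15 against 0 psu, short of 2-fold. A further unigene, described as similar to A-IV (c111351_g1), had 63.0, 76.55 and 88.0, with a log2 ratio of 0.48 for 15 against 0 psu. Its KEGG name is APOA4, but its Swissprot match is zebrafish apolipoprotein Eb, so its identity is uncertain. All 4 unigenes were in the order 0, 5, 15 psu from low to high, except c98843_g1 when scaled to beta-actin, the reference gene of the study's PCR, and of them only APOA5 and c109540_g2 reached 2-fold.

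The place of these differences among all genes was measured with unigenes whose FPKM reached 1 in both libraries. Of 30688 such unigenes in the comparison of 15 with 0 psu, 667 (2.17%) had an increase at least as large as that of c109540_g2 and 976 (3.18%) one at least as large as that of APOA5. These unigenes were picked as the largest increases among the members compared this way. Their shares are thus those of chosen extremes and do not measure how unusual the family is. At 5 psu the increases were less uncommon, being equalled by 11.3% and 9.43% of 32806 unigenes. Markers of enterocytes, the other cells known to make A-IV, were low when CDHR2 was left out. Without CDHR2, a KEGG name that 223 unigenes carried, 4 of 8 enterocyte markers were found. Their summed FPKM was 10.8 in fresh water, 9.99 at 5 psu and 11.7 at 15 psu. With CDHR2, which was on the list, the sum over 232 unigenes was 233, 245 and 224. The highest CDHR2 unigene had 16.2, 17.9 and 15.9 in these libraries. FABP2 had 3.38, 1.09 and 1.88 and ANPEP had 3.34, 3.70 and 1.43. Of the 6 VIL1 unigenes, c19216_g1 had 0, 3.64 and 3.25, c88567_g1 had 0, 0.30 and 1.12 and c83901_g2 had 0, 0 and 1.42, and the other 3 were at most 2.01 in any library. For 15 against 0 psu and without CDHR2, 3 of 7 enterocyte unigenes whose FPKM reached 1 in either library were higher and 2 lower. LCT was listed at 0 throughout, and CDX1, CDX2, SI and ALPI were not found. Whether enterocyte transcripts had a part in the A-IV values was not tested.

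**Figure D2:**
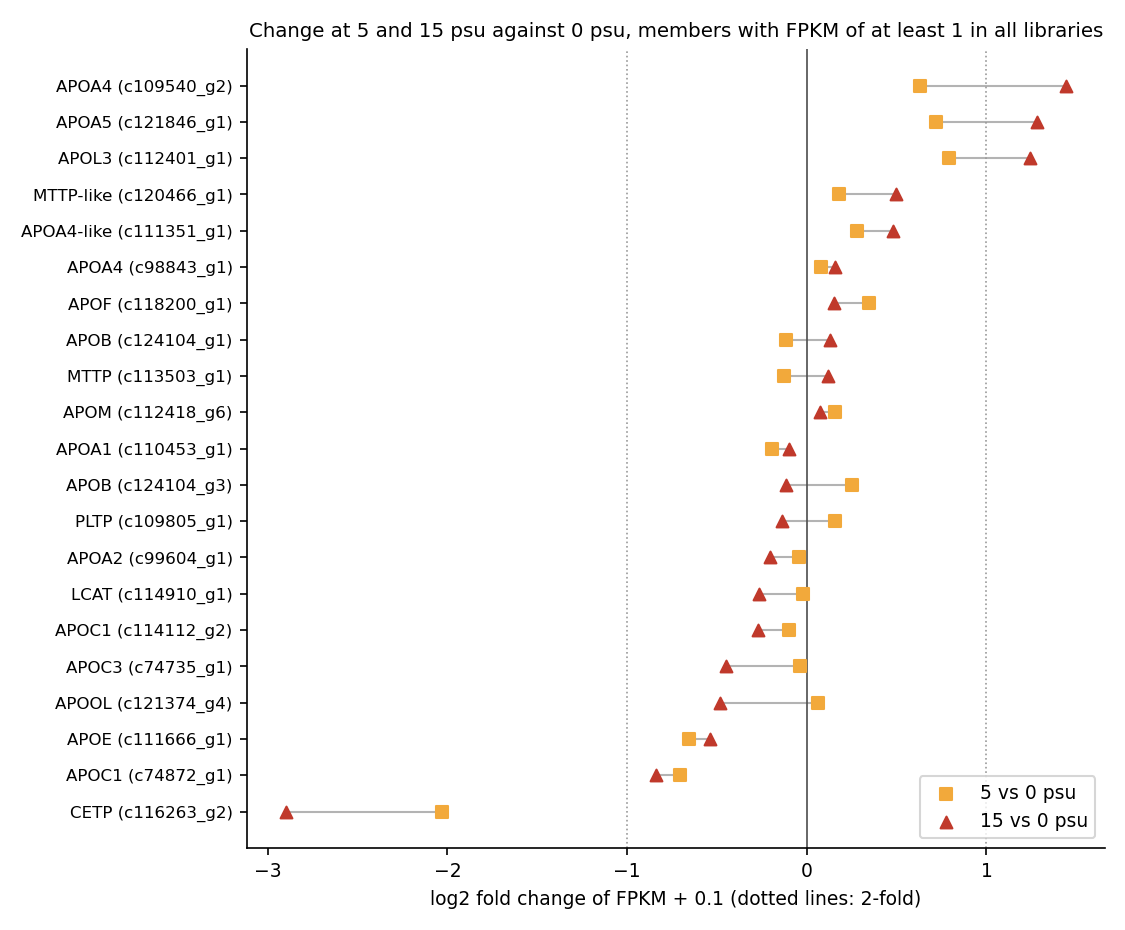
Log2 fold change of FPKM + 0.1 at 5 psu (squares) and 15 psu (triangles) against 0 psu for the 21 unigenes whose FPKM reached 1 in all 3 libraries (1 pooled library per salinity, no error). CETP lies at -2.03 and -2.90, APOA4 c109540_g2 at 0.63 and 1.44 and APOA5 at 0.72 and 1.28, while the high-density lipoprotein genes APOA1 and APOA2 lie near 0.

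Beside each other on the chromosome in the RefSeq annotation of this species (assembly CAS_Tse_1.0) are APOA5, APOA4, APOC3 and APOA1, in that order, between ZPR1 and SIK3. The annotation was used for gene order only. It holds 1 gene named APOA4, so which of the A-IV unigenes comes from it is not known. Within this group of neighbours the differences split. APOA5 was higher at 15 psu, whereas APOC3 and APOA1 had log2 ratios of -0.45 and -0.10. Of the A-IV unigenes, c109540_g2 was higher at 15 psu and c98843_g1 had a log2 ratio of 0.16. On which side of the split the neighbouring APOA4 gene lies is therefore not known. The FPKM of c109540_g2 was 3.80% of that of APOA1 in fresh water, 6.73% at 5 psu and 11.0% at 15 psu. The FPKM of APOA5 was 3.47%, 5.87% and 11.5% of that of APOC3, in the same order.

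On the APOA5 side, 1 of the 3 unigenes of ZPR1, a zinc finger protein gene (c116282_g4), had FPKM of 7.13 in fresh water, 13.5 at 5 psu and 16.1 at 15 psu, a log2 ratio of 1.16 for 15 against 0 psu. Another (c116282_g6) had 8.79, 10.9 and 9.97, and the last (c116282_g3) was listed at 0 in fresh water and had 5.95 and 17.0 at 5 and 15 psu. Their sum was 15.9 in fresh water, 30.4 at 5 psu and 43.1 at 15 psu. The next gene outward, BUD13, had 13.1, 13.6 and 14.4. On the APOA1 side, the kinase gene SIK3 had 15.2, 14.2 and 13.3, and PAFAH1B2 had 14.8, 16.4 and 15.5. The flanking genes were chosen by position after the values of the apolipoproteins were known.

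**Figure D3:**
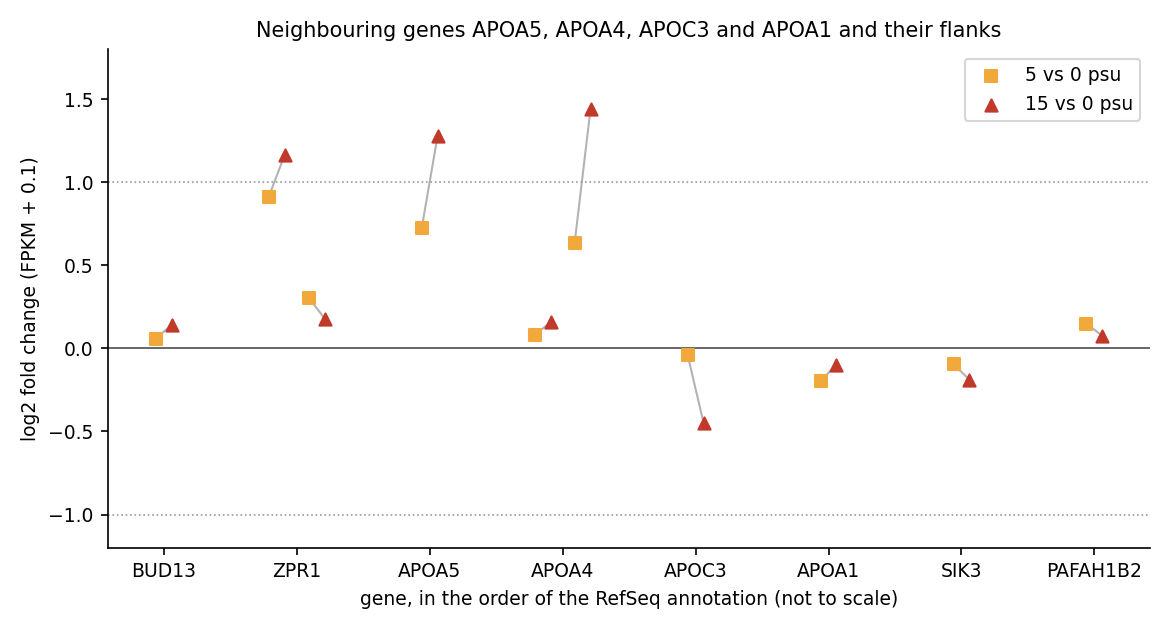
Log2 fold change of FPKM + 0.1 at 5 psu (squares) and 15 psu (triangles) against 0 psu for APOA5, APOA4, APOC3 and APOA1 and their flanking genes, in the order of the RefSeq annotation, with 1 pair of symbols per unigene listed above 0 at 0 psu. APOA5 (1.28), 1 A-IV unigene (1.44) and 1 ZPR1 unigene (1.16) lie above the 2-fold line at 15 psu, and the other unigenes, on either side, lie between -0.45 and 0.18.

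Apolipoprotein C-III (APOC3, c74735_g1), in mammals an inhibitor of triglyceride clearance, ranked after A-II and A-I in abundance. It had FPKM of 2008 in fresh water, 1955 at 5 psu and 1472 at 15 psu, so that the freshwater and 5 psu libraries were close and the 15 psu library was lower, with a log2 ratio of -0.45 to 0 psu and -0.41 to 5 psu. APOA5 and APOC3, which act in opposite senses on lipoprotein lipase in mammals, therefore differed in opposite directions at 15 psu, APOC3 by less than 2-fold.

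Both unigenes described as apolipoprotein C-I had their highest level in fresh water and their lowest at 15 psu. The abundant one (c114112_g2) had FPKM of 648 in fresh water, 606 at 5 psu and 538 at 15 psu. Its NR description names C-I, but its Swissprot match and protein domain are those of apolipoprotein C-II, the activator of lipoprotein lipase, so its identity is uncertain. The other (c74872_g1), with a C-I domain but the KEGG name of apolipoprotein E, had 91.8, 56.3 and 51.3, and its log2 ratios to 0 psu were -0.70 at 5 psu and -0.84 at 15 psu, the last becoming -1.06 relative to beta-actin.

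Apolipoprotein E (APOE, c111666_g1), a ligand of the receptors that take up lipoprotein remnants, had a lower level at both raised salinities. Its FPKM was 567 in fresh water, 361 at 5 psu and 390.4 at 15 psu, and the log2 ratios to 0 psu were -0.65 at 5 psu and -0.54 at 15 psu. The 5 and 15 psu libraries were close to each other, with a log2 ratio of 0.11. None of these reached 2-fold. The study itself reported APOE as higher at both raised salinities. It named the rat-matched unigene c183562_g1, left out by the rule here, for both its RNA-seq and its PCR. That PCR had an error and a test, and its direction is opposite to that of c111666_g1. Which APOE transcript the PCR measured was not tested. Apolipoprotein E is made by hepatocytes and by macrophages in mammals. Over the 12 hepatocyte marker unigenes above the FPKM minimum in both libraries the median log2 ratio was -0.51 for 5 against 0 psu, and over 11 it was -0.41 for 15 against 0 psu, with 0 higher and 2 lower (albumin) in each. For the macrophage list, of which 7 of 10 genes were found, the summed FPKM was 1430 in fresh water, 1269 at 5 psu and 1551 at 15 psu. Its median log2 ratio was -0.28 for 5 against 0 psu, with 0 of 10 unigenes higher and 1 lower, and -0.05 for 15 against 0 psu, with 0 of 9 higher or lower. C1QA (c119032_g1), the most abundant of the list, had 489, 448 and 568, CD68 had 214, 211 and 246, and CSF1R had 20.6, 13.2 and 19.7. The CD163 unigenes did not behave alike. c124071_g1 had 36.35, 17.0 and 30.2, and c113368_g2 had 20.76, 12.27 and 28.05. Of the others, c101893_g1 had 7.05, 13.92 and 0, and c105638_g2 had 0.90, 1.66 and 2.07. Whether the level of either cell type had a part in the values of APOE was not tested.

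Cholesteryl ester transfer protein (CETP, c116263_g2) gave the largest difference of any secreted member. This plasma protein exchanges cholesteryl ester of high-density lipoprotein for triglyceride of other particles, and it is absent from the plasma of mice and rats. Its FPKM was 28.5 in fresh water, 6.89 at 5 psu and 3.74 at 15 psu. The freshwater library was above both others, and the highest value was 7.62 times the lowest. The log2 ratio was -2.03 (5 vs. 0 psu), -2.90 (15 vs. 0 psu) and -0.86 (15 vs. 5 psu), the last becoming -1.05 relative to beta-actin. Of the 30688 unigenes whose FPKM reached 1 in both the 15 and 0 psu libraries, 61 (0.199%) were lower by as much as or more than CETP, itself included. Among the 14764 of these with a turtle or alligator match there were 26 (0.176%). For 5 against 0 psu the share was 1.22% of 32806 unigenes. As CETP was picked for the largest decrease among the members compared this way, these shares too are those of a chosen extreme. The same assembly component held 3 small unigenes with no KEGG name, which did not share 1 pattern: c116263_g4 had 1.51 in fresh water, 1.07 at 5 psu and 0.55 at 15 psu, c116263_g3 had 0.43, 0.85 and 0.81, and c116263_g1 had 0, 0 and 1.15.

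The other proteins that act on lipoproteins in plasma did not share this difference. Phospholipid transfer protein (PLTP, c109805_g1), which belongs to the same protein family as CETP, had FPKM of 19.1 in fresh water, 21.3 at 5 psu and 17.35 at 15 psu. Lecithin-cholesterol acyltransferase (LCAT, c114910_g1) had 74.2, 73.2 and 61.7. Apolipoprotein F (APOF, c118200_g1), known in humans as an inhibitor of CETP, had 24.6, 31.3 and 27.3. As a result PLTP was 0.669 times the level of CETP at 0 psu, 3.09 times at 5 psu and 4.64 times at 15 psu. The ratio of CETP to LCAT was 0.384 in fresh water, 0.0941 at 5 psu and 0.0606 at 15 psu. In the RefSeq annotation CETP lies between HERPUD1 and NLRC5. HERPUD1 had FPKM of 17.9, 17.9 and 18.1, and NLRC5 had 1.86, 2.62 and 1.79, so neither adjacent gene reached 2-fold. The next gene outward, CPNE2, had 27.2, 13.4 and 20.25, a log2 ratio of -1.02 (5 vs. 0 psu) and -0.43 (15 vs. 0 psu). On the other side, of the 2 unigenes of SLC12A3, c125754_g1 was listed at 0 except for 43.0 at 5 psu, and c77902_g2 stayed below 1.

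**Figure D4:**
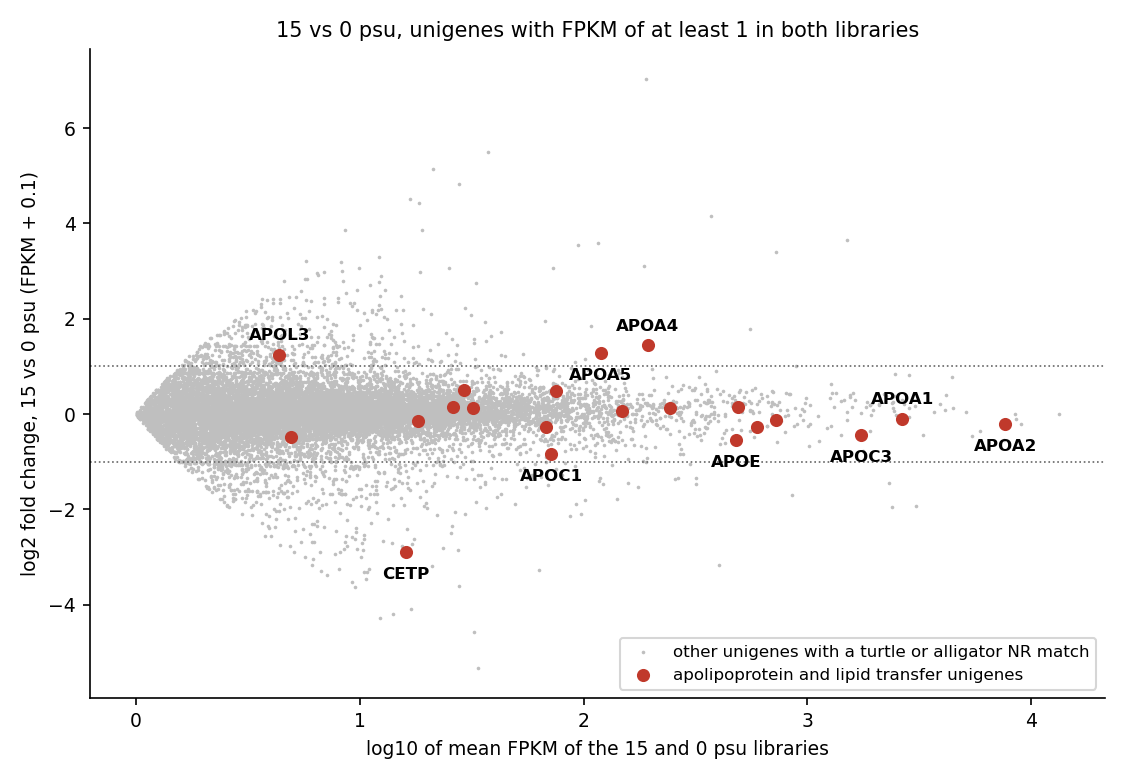
Log2 fold change of FPKM + 0.1 for 15 against 0 psu (y axis) by the log10 mean FPKM of the 2 libraries (x axis) for 14764 unigenes with a turtle or alligator match and FPKM at or above 1 in both libraries, in grey, with the 21 apolipoprotein and lipid transfer unigenes in red. CETP at -2.90 lies near the lower edge of the cloud. APOA4 c109540_g2 at 1.44 and APOA5 at 1.28 lie above the 2-fold line, and the unigenes at the right end lie near 0.

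Of the lipocalin-fold apolipoproteins, apolipoprotein M (APOM, c112418_g6), which carries sphingosine-1-phosphate on high-density lipoprotein, had FPKM of 145 in fresh water, 161 at 5 psu and 152 at 15 psu. Its highest library was 1.12 times its lowest. Apolipoprotein D (APOD, c60372_g1) stayed below 1, with 0.19, 0.32 and 0.58 and a log2 ratio of 1.23 for 15 against 0 psu that became 0.41 with a pseudocount of 1. It is known in mammals mainly from tissues other than liver.

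The intracellular proteins that carry an apolipoprotein name were low and uneven. APOOL (c121374_g4), a protein of the mitochondrial inner membrane, had FPKM of 5.77 in fresh water, 6.04 at 5 psu and 4.10 at 15 psu. Of the apolipoprotein L genes, which in humans belong to innate immunity, APOL3 (c112401_g1) had 2.55, 4.49 and 6.18, a log2 ratio of 1.24 for 15 against 0 psu. A second APOL3 unigene (c103515_g1) went the other way, with 2.59, 0.32 and 0.07, so that the summed APOL3 log2 ratio for 15 against 0 psu was 0.28. An APOL6 unigene (c162218_g1) was listed at 0 in the 0 and 5 psu libraries and had 11.8 at 15 psu, and another (c135568_g1), named for its like pattern after its values were seen, had 0, 0 and 7.51. The 2 remaining APOL6 unigenes stayed between 0 and 1.03. Of the 2 unigenes of APOLD1, an endothelial gene in mammals, c118139_g1 had 0.34, 0.54 and 2.02 and c107570_g1 had 1.5, 0.33 and 0.60. The unigene named as APOEB, the fish form of apolipoprotein E, was listed at 0 in every library.

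Some members share KEGG and Pfam annotations, which the rule did not use. As these come from the same sequences as the NR match, they are not independent of it. The KEGG map of PPAR signaling, which holds lipid genes controlled by the fatty acid-sensing nuclear receptors, included APOA1, APOA2, APOA5, APOC3 and PLTP. Of these 5, 1 was beyond 2-fold for 15 against 0 psu. The map held 286 unigenes in all, of which 120 besides the members were compared. FPKM reached 1 in both libraries for 66 of these, of which 4 were higher and 5 lower. The shares beyond 2-fold at this filter were 11.9% of all unigenes and 7.4% of turtle or alligator matches. The median log2 ratios were -0.14 for the members of the map and -0.04 for the 66 others. The domain shared by apolipoproteins A-I, A-IV and E was annotated in 13 unigenes, of which 7 were members.

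The unigenes whose profile across the 3 libraries lay nearest to that of c109540_g2 were sought among 3574 with a KEGG name and FPKM at or above 10 throughout, by the Euclidean distance of the log2 ratios to 0 psu. The nearest was PPP1R3 (c114678_g1), a glycogen-targeting subunit of protein phosphatase, with FPKM of 14.5 in fresh water, 20.4 at 5 psu and 40.0 at 15 psu and a distance of 0.142. The next were APOA5 at 0.185 and PLIN2 (c112643_g2), a lipid droplet coat protein, at 0.208, which had 31.5, 45.2 and 76.0. For APOA2, whose profile was nearly flat, the nearest were CXCL10 at 0.0112, PNRC2 and a tubulin alpha unigene. With 3 libraries a profile is 2 numbers, and likeness of this kind is a description only.

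The receptors, lipases, assembly factors and regulators that act with these proteins were taken from a list of 46 genes, of which 32 were found in 54 unigenes. When FPKM had to reach 1 in both libraries, 1 of 37 unigenes was higher and 2 were lower for 5 against 0 psu, 2 of 33 were higher and 2 lower for 15 against 0 psu, and 3 of 33 were higher and 0 lower for 15 against 5 psu. The shares beyond 2-fold over all unigenes were 11.5%, 11.9% and 12.1%. Over turtle or alligator matches, from which the list was taken, they were 6.5%, 7.4% and 7.4%. The list as a whole was near or below the shares over all unigenes. It was above those over turtle or alligator matches, by few unigenes. The median log2 ratios were 0.10, 0.24 and 0.14. At 15 psu the higher ones were lipoprotein lipase and the very-low-density lipoprotein receptor, and the lower ones were a pair of nuclear receptors. Lipoprotein lipase (LPL, c122187_g1), the enzyme that hydrolyses plasma triglyceride, had FPKM of 8.46 in fresh water, 7.16 at 5 psu and 20.6 at 15 psu, a log2 ratio of 1.27 for 15 against 0 psu and 1.51 for 15 against 5 psu. The very-low-density lipoprotein receptor (VLDLR, c116330_g1) had 1.95, 1.97 and 5.02, a log2 ratio of 1.32 for 15 against 0 psu. Both of these unigenes had close values at 0 and 5 psu and a higher one at 15 psu. The other VLDLR unigene (c118632_g1) had 2.10, 3.03 and 3.92. It was higher at each step, with a log2 ratio of 0.87 for 15 against 0 psu, short of 2-fold.

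The nuclear receptor NR0B2, a repressor known from bile acid control, had FPKM of 72.0 in fresh water, 51.8 at 5 psu and 32.0 at 15 psu (c115084_g1), a log2 ratio of -1.17 for 15 against 0 psu. HNF4A, a liver factor known in mammals to drive several apolipoprotein genes, had 18.6, 14.8 and 8.98 (c117824_g1), a log2 ratio of -1.04 that became -0.98 with a pseudocount of 1, short of 2-fold. Both were lower at each step. PPARA, the receptor for fatty acids in liver, had 6.81, 6.99 and 8.31. The most abundant uptake gene, LRP1 (c123754_g2), a remnant receptor, had 60.8, 60.7 and 75.1. Of the unigenes beyond 2-fold for 5 vs. 0 psu, ABCG5 (c125437_g1), part of a sterol exporter, had 1.42 and 3.00 at 0 and 5 psu and was listed at 0 at 15 psu, and its log2 ratio of 1.03 for 5 vs. 0 psu became 0.72 with a pseudocount of 1 and 0.95 with median ratios set to 1. The other ABCG5 unigene (c32593_g1) had 1.92, 0.60 and 0. Of the unigenes of its partner ABCG8, c60805_g1 had 4.09, 1.07 and 0.84. ABCG8 c174058_g1 had 0, 6.11 and 0, and c73045_g1 had 0.36, 0.20 and 0.12. The unigenes of each gene therefore did not share 1 direction at 5 psu. The most abundant lipid transport and lipase unigenes, NPC2 (c103012_g1), which binds cholesterol in lysosomes, and LIPA (c110488_g1), the lysosomal acid lipase, had 96.9, 128 and 131 and 37.2, 42.9 and 50.9 in the order 0, 5 and 15 psu.

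**Figure D5:**
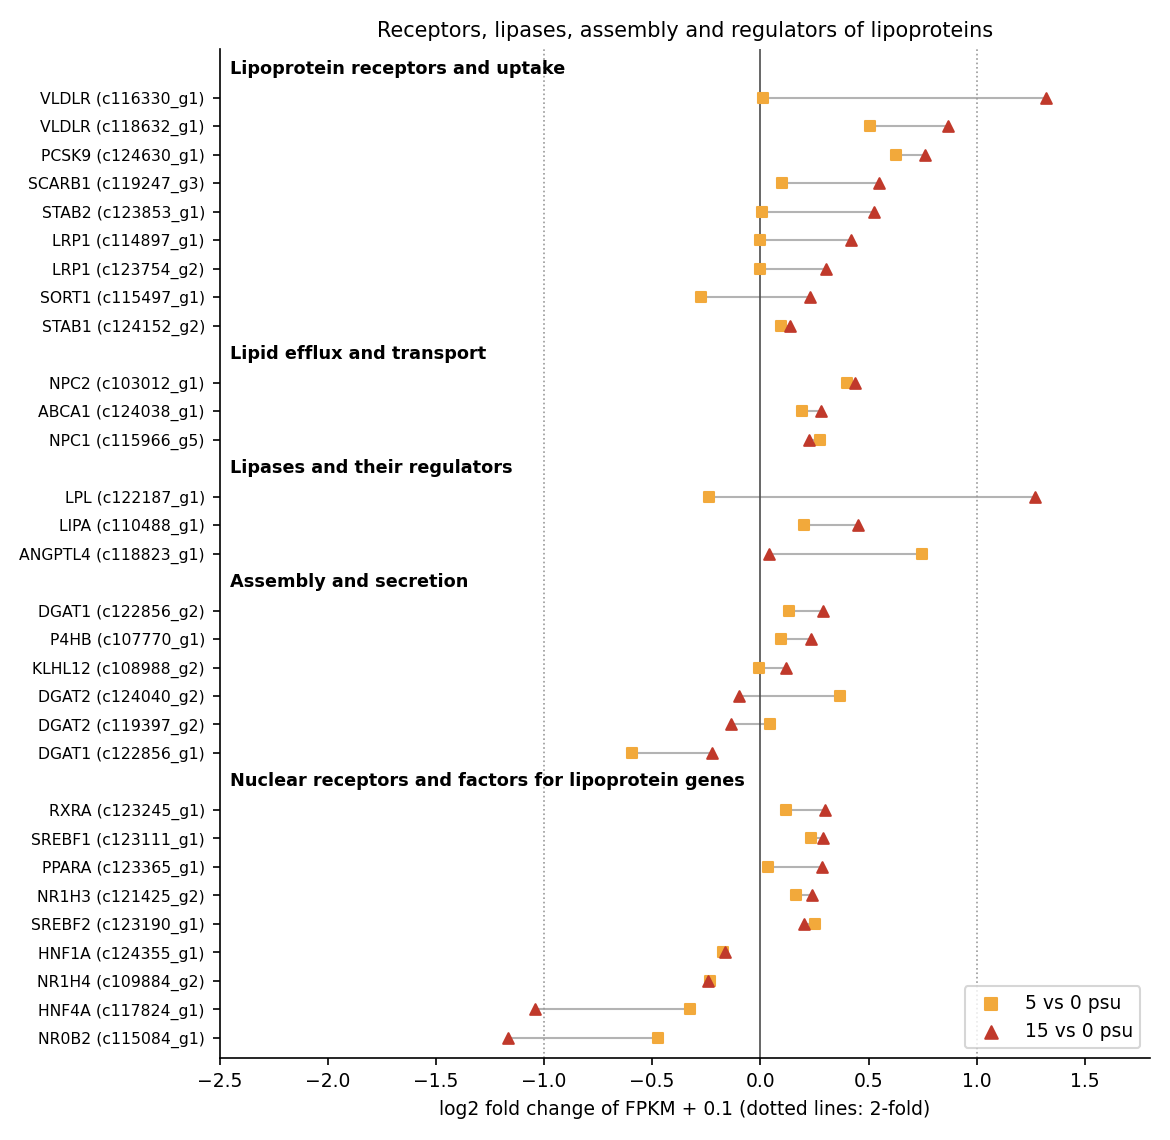
Log2 fold change of FPKM + 0.1 at 5 psu (squares) and 15 psu (triangles) against 0 psu for listed receptor, transport, lipase, assembly and regulator unigenes whose FPKM reached 1 in all 3 libraries, grouped by role. VLDLR c116330_g1 (1.32) and LPL (1.27) lie above the 2-fold line at 15 psu, and NR0B2 (-1.17) and HNF4A (-1.04) lie below it.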

How the data were processed

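RNA-seq of liver was made from 3 pooled libraries of 3 turtles each (0, 5 and 15 psu). The authors assembled reads with Trinity, quantified unigenes with RSEM (Bowtie is also named in the submitters' processing notes), annotated them against NR, Swissprot, KEGG and Pfam, and deposited FPKM, scaled by length and mapped reads, with 2 decimals. No further scaling is described. Summed FPKM was 986004 in fresh water, 969628 at 5 psu and 960385 at 15 psu. Steps of low FPKM values (0.3 to 1) put the 5 psu library at roughly 1.27 times the depth of the 0 psu library and the 15 psu library at 1.01 times. The study's own read totals, not used here, give a smaller excess at 5 psu and put the 15 psu library slightly below the 0 psu library. The labels write salinity as a percentage, and the study's psu was used.

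Log2 ratios used a pseudocount of 0.1, with Python 3.11.15, numpy 2.4.6, pandas 2.3.3 and matplotlib 3.10.9. Counting was tested on simulated data. With 1 library per salinity no test was run. No fold is given against a library at 0, though counts and medians include such unigenes. Members, lists and rules were chosen with earlier results of these data known. The rule named, per gene, the unigene of highest summed FPKM, any further unigene beyond 2-fold that reached 1 in both libraries, any that reached 10 in 1 library and was at 0 in another, and listed pathway genes beyond 2-fold or highest in their role. Other unigenes of these genes, neighbouring genes and PPARA were named after their values were seen. A unigene can hold part of a gene or reads of a close relative. RefSeq gave gene order for 15 of 19 gene symbols. Some pathway list genes counted in the totals are not reported here by name. Alternatives were other pseudocounts, filters, scalings and unigene choices.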

Additional observations from a re-analysis of the deposited data

How the results depend on the processing

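The results that lead the text kept their direction and their side of 2-fold under every pseudocount, median ratios set to 1 and values relative to beta-actin (c115795_g1, with FPKM of 2495 in fresh water, 2548 at 5 psu and 2907 at 15 psu): CETP for 5 and 15 against 0 psu, and c109540_g2 and APOA5 for 15 against 0 psu. Relative to beta-actin, c74872_g1 (-1.06, 15 against 0 psu) and CETP (-1.05, 15 against 5 psu) passed 2-fold, and the sign of differences near 0 changed for 15 against 0 psu in APOB c124104_g1, MTTP c113503_g1, APOA4 c98843_g1, APOM and APOF and for 15 against 5 psu in APOA1, APOA4 c98843_g1 and APOE. The summed APOLD1 log2 ratio for 5 against 0 psu, at the 2-fold line, was 0.54 when only the unigene of highest FPKM was used.

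The counts depended on the filter. Shares over all unigenes are given above only for 2-fold differences at FPKM of at least 1 in either or in both libraries. They were not computed for the other settings, so the counts below show how the settings matter and nothing about the members. For 5 against 0 psu, 1 member was lower at FPKM of 10 or more in either library, at least 1 in both, or 1 unigene per gene, 1 was higher with KEGG-named unigenes of other species, and at 1.5-fold, chosen after seeing the data, 3 were higher and 5 lower. For 15 against 0 psu, 3 were higher and 1 lower with at least 10 in either or 1 in both, and 1 was lower with 1 unigene per gene. For 15 against 5 psu, 1 was higher with at least 10 in either and 0 with at least 1 in both, and 1 was lower relative to beta-actin, with no filter, or at 1.5-fold. The members' median for 5 against 0 psu was 0.065 with no filter or with at least 1 in both and 0.073 with 1 unigene per gene. For 15 against 0 psu it was -0.15 relative to beta-actin, -0.013 with at least 10 in either or 1 unigene per gene, and -0.10 with at least 1 in both. For 15 against 5 psu it was -0.094 relative to beta-actin and -0.086 with at least 1 in both. In the pathway list for 5 against 0 psu, 4 unigenes were higher and 5 lower with at least 1 in either. The higher were 2 with a pseudocount of 1, 0 with at least 10 in either and 1 with at least 1 in both, and the lower 0 and 2 under these filters. For 15 against 0 psu, 2 were higher and 7 lower. With at least 10 in either 1 was higher and 2 lower, with at least 1 in both 2 were lower, and the median was -0.016 relative to beta-actin. For 15 against 5 psu, 3 were higher and 4 lower. With at least 10 in either 1 was higher and 0 lower, with at least 1 in both 0 were lower, and with no filter 9 were lower. The median was -0.12 relative to beta-actin and -0.012 with no filter. Fewer unigenes are compared under stricter filters. The cause of other shifts was not tested.

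No paired analysis was possible because each salinity had 1 pooled library, and leaving out a replicate was not possible for the same reason. Depth limits the values near 0, and the reads behind them are unknown.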

Other observations

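Genes with apolipoprotein functions whose descriptions use other words were outside the rule. Clusterin (CLU, c116346_g1), also known as apolipoprotein J and found on high-density lipoprotein, had FPKM of 329 in fresh water, 473 at 5 psu and 398 at 15 psu. It was highest in the 5 psu library. Beta-2-glycoprotein 1, or apolipoprotein H (APOH, c114985_g1), which binds phospholipid, had 369, 439.9 and 359, and a related unigene (c120492_g1) had 83.0, 85.2 and 110.3. APOBEC1, an editing enzyme known in mammals for the apolipoprotein B transcript, had 33.5, 34.7 and 35.6 in its most abundant unigene (c115223_g2). The apolipoprotein A-I binding protein (AIBP, c123640_g1) had 21.7, 19.8 and 18.2. None of these unigenes differed by 2-fold between libraries, and all were looked up after the values of the members were known. The less abundant APOBEC1 unigenes did differ and did not share 1 pattern. c100691_g1 had 2.32, 1.18 and 4.07, c107718_g1 had 2.71, 0 and 1.68, and c175880_g1 had 0, 6.56 and 0.

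Clusterin also had unigenes matched to rabbit or rat. The 3 matched to rabbit had 1.71 to 6.84 in fresh water and 0 in the other libraries, and the rat-matched unigene was listed at 0 at 0 psu and had 2.18 at 5 psu and 2.04 at 15 psu. The rat-matched APOE unigene (c183562_g1) had 0.06 in fresh water, 1.86 at 5 psu and 1.32 at 15 psu. The turtle APOE unigene was 9456 times the rat-matched one at 0 psu, where the latter was near 0, 194 times at 5 psu and 296 times at 15 psu. The rat-matched unigene was thus small beside the turtle one in each library. Its origin was not tested.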
